A study of Mus musculus with 14 samples.

Results

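Mammary tumours of Brg1+/- mice differed in how strongly they expressed genes of the interferon response, and the 8 tumours at the ends of that range, of 12 in all, are described here. Each tumour was given a score, the mean log2 ratio of tumour over reference RNA of Ifit1, Usp18, Mx2 and Isg15, and the 4 tumours with the highest scores (interferon-high) were set against the 4 with the lowest (interferon-low). The groups were thus chosen by measured values of the same arrays, and the values of the 4 genes, and of genes that share their regulation, are given as a description with no support drawn from them. The remaining 4 tumours, called middle here, entered neither group.

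All 12 tumours carried 1 genotype per the labels, heterozygous for Brg1 (gene Smarca4), the motor subunit of SWI/SNF, which moves nucleosomes. The labels name no wild-type tumour, age, treatment or time, and a word MIXED in the sample names is not explained there. Total RNA of each tumour in Cy5 was hybridised with a mouse reference RNA in Cy3 on 14 arrays, with 2 arrays for T172 and for T284. The second array of each is labelled biorep, with no further word on its material. Nothing in the labels says whether each tumour came from a separate mouse, so p-values measure the spread between these tumours. Each array had values for 22501 to 22566 of 22575 probes. The arrays hold bulk tissue, in which fewer cells of a type and less RNA per cell cannot be told apart.

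Interferons are secreted proteins of antiviral defence. Type I interferons bind a receptor of Ifnar1 and Ifnar2, whose kinases Jak1 and Tyk2 activate transcription factors that join Irf9 to bind the interferon-stimulated response element in the promoters of antiviral genes. Interferon gamma acts through another receptor and on gamma-activated sites. Cells can also enter this response when their own sensors detect RNA or DNA, and in tumours it may be carried by cancer cells, stroma or immune cells.

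Some of the genes that follow the score carry the response element in their promoters. The windows shown are the 150 bases before a RefSeq start (assembly GRCm38.p6), which need not be the outermost start of the gene. They are those of the score genes that had an entry, Ifit1 and Isg15, as Usp18 and Mx2 had none. The others are of the 3 genes with the smallest p among those higher in the interferon-high tumours. Capitals mark matches to the core of the element, GAAA followed by any 2 bases and GAAA, on either strand, and overlapping matches run together. Ifit1 lies at chr19:34640739-34640888 on the plus strand, Isg15 at chr4:156200819-156200968 on the minus strand, Bst2 at chr8:71537473-71537622 on the minus strand, Irgm2 at chr11:58214827-58214976 on the plus strand and Ddx60 at chr8:61927937-61928086 on the plus strand.
Ifit1: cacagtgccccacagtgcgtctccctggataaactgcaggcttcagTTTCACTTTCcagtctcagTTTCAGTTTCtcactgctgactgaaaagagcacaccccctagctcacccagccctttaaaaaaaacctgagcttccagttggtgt
Isg15: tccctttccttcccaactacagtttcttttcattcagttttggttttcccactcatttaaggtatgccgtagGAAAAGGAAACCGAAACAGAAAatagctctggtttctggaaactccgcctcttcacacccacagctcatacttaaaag
Bst2: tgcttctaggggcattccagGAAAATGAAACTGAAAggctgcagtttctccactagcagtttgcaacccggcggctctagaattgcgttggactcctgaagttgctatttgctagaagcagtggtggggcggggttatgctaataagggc
Irgm2: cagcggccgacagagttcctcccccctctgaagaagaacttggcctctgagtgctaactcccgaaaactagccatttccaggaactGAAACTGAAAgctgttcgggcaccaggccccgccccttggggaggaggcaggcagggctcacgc
Ddx60: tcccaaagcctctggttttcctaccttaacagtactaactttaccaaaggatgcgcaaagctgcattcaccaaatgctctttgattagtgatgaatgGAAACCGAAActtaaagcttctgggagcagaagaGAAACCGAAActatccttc

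Ifit1 held 2 matches, in the reverse form of TTTC, any 2 bases and TTTC, Isg15 held 3 overlapping ones, Bst2 2 overlapping ones, Irgm2 1 and Ddx60 2. Of the 2 next genes by p, Phf11a held 1 match and Oasl1 0. For 3 of these genes the window reached into the annotated gene. The Ddx60 window ends at 61928086 and the gene starts at 61928073. That of Oasl1, on the plus strand, ends at 114923239 and the gene starts at 114923143. That of Phf11a, on the minus strand, begins at 59297523 and the gene ends at 59297564. The 0 of Oasl1 thus says little of its promoter, and the Phf11a match and part of the second Ddx60 match lie inside the gene. Over the 250 bases before the start, 936 of 27025 genes in the RefSeq table (3.46%) held a match. The motif was found in 11 of 42 type I interferon-response genes with an entry (26.2%) and in 10 of 16 interferon-gamma-type response genes (62.5%). Among the other lists it ran from 0 of 8 receptors and Janus kinases to 7 of 10 interferon ligands (70%). No ligand had all high tumours above all low ones. NK cell markers held the motif in 2 of 7 (28.6%), and 0 of the 8 measured were separated. Luminal genes held it in 2 of 9 (22.2%), and 2 of the 12 measured were separated and higher. The motif was thus also found in 2 lists, ligands and NK cell markers, with no member separated and higher. Of the genes whose ratio rose with the score over the 12 tumours, 11 of 35 held it (31.4%), so most did not. The gamma-activated site, TTCNNNGAA, was found in 8.13% of all genes and in 8 of 16 of the gamma-type genes (50%). It was in 4 of 42 of the type I genes (9.52%) and in 5 of 10 of the ligands (50%). Among the type I genes whose 2 groups of tumours did not overlap, 8 of 22 held the response element (36.4%), against 3 of the 20 others (15%). These are matches of letters in a window, and binding was not measured here.

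The score ran from 3.73 in T920 through 2.71 in T284, 2.71 in T55 and 2.59 in T2134, the interferon-high tumours, to 1.04 in T172, 0.27 in T646, -0.09 in T2023 and -0.60 in T176, the interferon-low ones. The middle tumours T372, T160, T221 and T135 scored 2.31, 2.07, 1.62 and 1.34. Mean scores were 2.93 ± 0.53 (SD, n = 4), 1.83 ± 0.44 (SD, n = 4) and 0.15 ± 0.69 (SD, n = 4) for high, middle and low, and 0.41 ± 0.58 (SD, n = 3) for the low group without T176. The order had no wide gap at either edge: T2134 stood 0.28 above T372, and T172 stood 0.29 below T135. On its 2 arrays T172 scored 1.21 and 0.88, and T284 scored 2.53 and 2.90, so the repeat arrays of a tumour differed by about as much as the tumours at the edges.

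**Figure D1:**
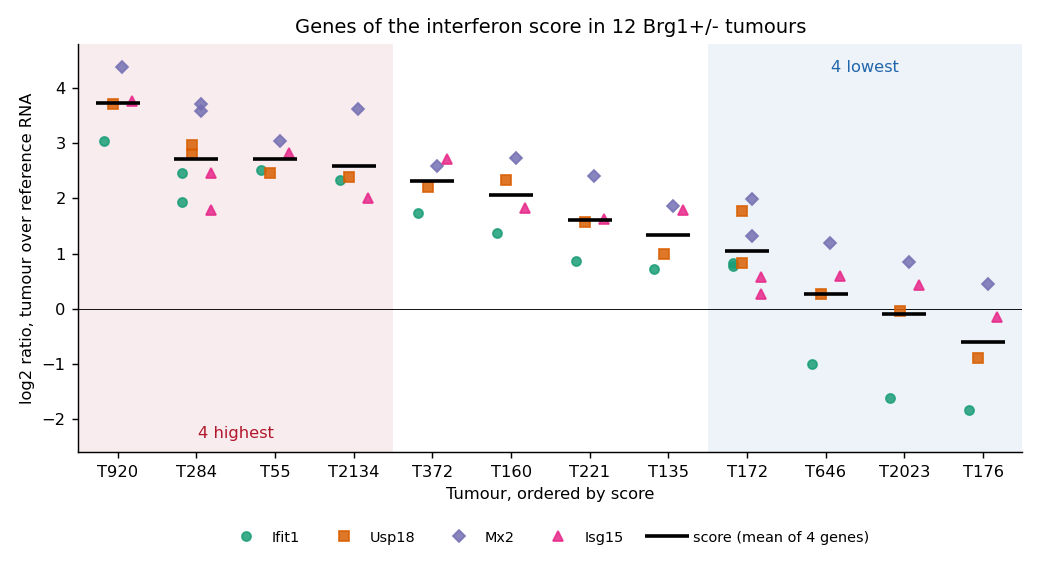
Log2 ratio of tumour over reference RNA (vertical axis) of Ifit1, Usp18, Mx2 and Isg15 in each tumour, ordered by score; T172 and T284 have a point for each of their 2 arrays, and black bars mark the score. Shading marks the 4 highest and the 4 lowest tumours, and the score falls from 3.73 to -0.60 with gaps of 0.28 and 0.29 at the group edges.

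The genes of the score differ in role. Ifit1 encodes a protein that binds viral RNA with foreign caps. Its log2 ratio was 3.04 in T920, 2.19 in T284, 2.51 in T55 and 2.34 in T2134, against 0.80 in T172, -1.0 in T646, -1.62 in T2023 and -1.83 in T176. Isg15, a ubiquitin-like modifier, was at 3.76, 2.12, 2.83 and 2.01 in the same high tumours and at 0.42, 0.60, 0.43 and -0.14 in the low ones. The differences between group means were 3.43 for Ifit1, 2.70 for Usp18, which removes Isg15 and damps receptor signalling, 2.64 for Mx2, a dynamin-like antiviral GTPase, and 2.35 for Isg15. Without T176 they were 3.12, 2.35, 2.44 and 2.2. Across the 12 tumours the 4 genes correlated pairwise with Pearson's r of 0.896 to 0.974, as a description over shared arrays.

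Over all other genes, no gene passed the test between the interferon-high and interferon-low tumours. With limma and Benjamini-Hochberg adjustment over 16616 genes, 0 genes (0%) had an adjusted p under 0.05, and the smallest adjusted p was 0.154; 1223 genes had an unadjusted p under 0.05, 736 higher and 487 lower in the high group. Without T176 the same test called 0 genes (0%), with a smallest adjusted p of 0.324 and 1031 genes at an unadjusted p under 0.05. The median difference over all genes was 0.01 on the log2 scale. As a descriptive measure, 444 genes (2.67%) had all 4 high tumours above all 4 low ones, and 269 genes (1.62%) had them all below; without T176 these were 695 (4.18%) and 415 (2.5%), where fewer tumours make separation easier. The tests of single genes below therefore carry no call, and the counts of members whose groups did not overlap are read beside these percentages. Where another tumour was left out, the number of all 16616 genes separated in either direction is given, against 713 with none left out.

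The 5 genes with the smallest p among those higher in the interferon-high tumours, none of them called, were Bst2, Irgm2, Ddx60, Phf11a and Oasl1, of which Phf11a is in none of the interferon lists. Bst2, which encodes tetherin, a membrane protein that holds budding virus at the cell surface, was at 2.52, 2.09, 2.29 and 2.80 in T920, T284, T55 and T2134, and at -0.08, 0.51, -0.45 and 0.49 in T172, T646, T2023 and T176. The groups did not overlap, and the difference was 2.31 ± 0.27 (SE, n = 4 and 4; adjusted p = 0.154). Irgm2, an immunity-related GTPase of vacuole defence, differed by 2.35 ± 0.28 (SE; adjusted p = 0.154). Ddx60, a helicase linked to RNA sensing, was at 2.13, 1.90, 1.85 and 1.33 in the high tumours and at -0.17, 0.08, -1.12 and -1.11 in the low ones. Its difference was 2.38 ± 0.33 (SE; adjusted p = 0.221), that of Phf11a was 2.13 ± 0.29 and that of Oasl1, of the oligoadenylate synthetase family, was 2.18 ± 0.31, each with the same adjusted p of 0.221.

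Of 64 genes listed as type I interferon-response genes, 53 were measured in all 12 tumours. In 28 of the 53 the interferon-high tumours all lay above the interferon-low ones, beside 2.67% of all genes, and in 0 they all lay below; 52 had a positive difference. The median difference was 1.18, and 1.05 without T176, when 30 of 53 were separated and higher, beside 4.18% of all genes. The mean over the list was 1.31 to 1.83 in the 4 high tumours and -0.05 to 0.64 in the 4 low ones. Since the score is made of the same kind of gene, this describes the groups and is not evidence for them.

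Oas2, which makes the messenger that activates RNase L, was at 3.53, 3.05, 4.08 and 4.49 in T920, T284, T55 and T2134 and at 1.04, 1.09, -0.25 and -1.17 in T172, T646, T2023 and T176. Its difference of 3.61 ± 0.54 (SE; adjusted p = 0.257) was the largest of the list. Rtp4, a chaperone of membrane receptors induced by interferon, differed by 3.19 ± 0.58 (SE; adjusted p = 0.462). Genes of the list outside the naming rule, picked after their values were seen, show the range. Mx1 was separated by little, at 0.77 to 1.26 in the high tumours and 0.01 to 0.58 in the low ones. Rsad2, the antiviral enzyme viperin, was separated although 2 of the 4 high tumours lay below the reference, with values of 1.61, -0.31, -0.43 and 0.60 against -0.99 to -1.32 in the low group. Ifitm1 was the member with a negative difference, at -2.16, -2.62, -1.74 and 0.21 in the high tumours and at -2.94, -0.37, -0.97 and 0.43 in the low ones. Members of the Oas, Ifit and Ifi200 families are similar in sequence, and cross-hybridisation between them was not tested.

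**Figure D2:**
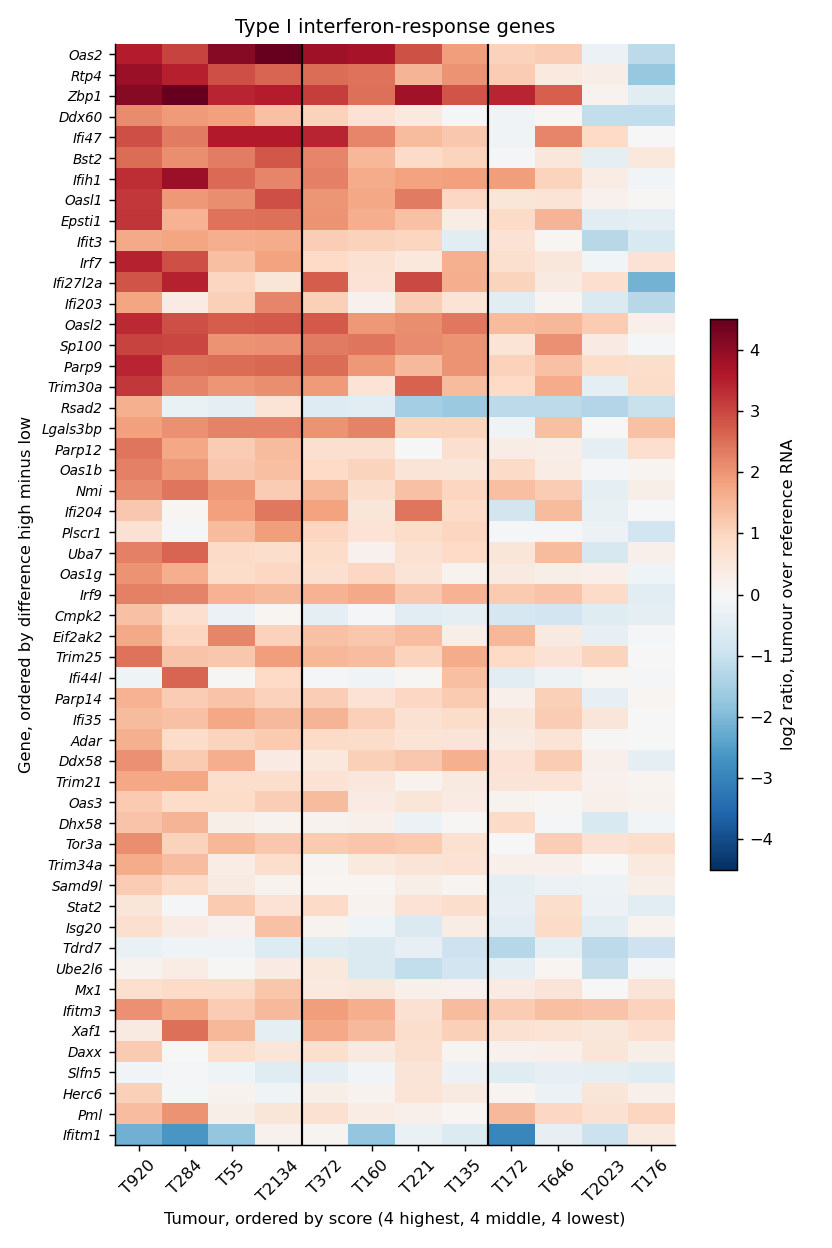
Log2 ratio of tumour over reference RNA (colour) for 53 type I interferon-response genes (vertical axis, ordered by the difference of high minus low) in 12 tumours (horizontal axis, ordered by score; black lines bound the groups). Most rows go from red in the 4 highest tumours to pale or blue in the 4 lowest, and in 28 of 53 the groups do not overlap.

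The middle tumours lay between the groups for most of these genes. The middle mean fell between the high and low means in 42 of 53 type I genes, and in 27 of the 28 whose groups were separated. Over all genes this held for 6293 of 16616, for 376 of the 444 separated higher and for 220 of the 269 separated lower. The 2 arrays of T172 and of T284 show how far values varied within a tumour. As the second is labelled biorep, technical and biological spread cannot be told apart there. The median absolute difference between the 2 arrays of a tumour over the type I genes was 0.361 for T172 and 0.318 for T284, beside 0.306 and 0.338 over all genes. Both T284 arrays lay above both T172 arrays in 44 of the 53 genes and below in 0, while over all genes 3499 of 16531 lay above and 2927 below. The 2 tumours were put in opposite groups by genes of the same response on these arrays. The 44 therefore describe the groups and are not evidence for them.

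The genes nearest to the score over the 12 tumours, by Pearson's r and as a description, were Rtp4 (0.963), Phf11a (0.955), Ddx60 (0.955), Oasl2 (0.951), Plscr2 (0.951), Arfrp1 (0.947), Parp9 (0.946) and Acmsd (0.941). Rtp4 was at 3.88, 3.5, 2.91 and 2.61 in the high tumours in the order of their scores, at 2.51, 2.43, 1.52 and 2.01 in the middle ones and at 1.14, 0.45, 0.29 and -1.72 in the low ones. Arfrp1, a small GTPase of the Golgi, moved over a much narrower range, from 0.97 in T920 to -0.46 in T176. Acmsd, an enzyme of tryptophan breakdown, ran from 0.70 to 0.01.

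Ligands start the response. Of 17 listed interferon genes, 10 were measured, and 1, Ifna11, was separated and lower in the high tumours (difference -0.52), beside 1.62% of all genes. Without T2134, 4 of 10 were separated and lower, when 1168 of 16616 genes were separated in either direction, against 713 with none left out. Ifna5 had the largest difference, -1.12 ± 0.53 (SE; adjusted p = 0.668), at -1.35, -1.54, -1.35 and 0.14 in T920, T284, T55 and T2134 and at -0.92, 0.52, 1.18 and -0.40 in T172, T646, T2023 and T176. Ifnb1, the interferon beta gene, was at 0.18, 0.09, 0.13 and 0.44 in T920, T284, T55 and T2134 and at -0.17, 0.17, 0.17 and 0.59 in T172, T646, T2023 and T176. These overlap, with a difference of 0.02. Ifng, the ligand of the gamma pathway, differed by 0.15, and the median over the 10 ligands was -0.12. The alpha interferon genes are near copies of each other, so which of them a probe reports is uncertain, and two-colour ratios do not say whether a ligand was above background at all.

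Of 9 receptor and kinase genes, 0 were separated in either direction. Ifnar1 was at 0.49, -0.42, -0.53 and -1.05 in the high tumours and at -0.53, 0.72, -1.18 and -0.18 in the low ones, a difference of -0.08. Ifnar2 differed by 0.30, Tyk2 by 0.24, Jak1 by -0.58 and Ifngr1 by -1.04, and for none did the groups stand apart. Among 14 STAT and IRF factors, 2 were separated and higher, Irf7 and Irf9, and 4 without T172 or without T646. Of all 16616 genes, 1969 were separated in either direction without T172 and 1014 without T646. The list median was 0.13, and 0.48 without T646. Irf7, which amplifies the type I response and is itself induced by it, was at 3.46, 2.91, 1.37 and 1.80 in the high tumours against 0.71, 0.50, -0.13 and 0.66 in the low ones, a difference of 1.95 ± 0.46 (SE; adjusted p = 0.476). Irf9 differed by 1.18, and Irf3 and Irf1 by 0.13 and 0.14. Stat5a, which transmits prolactin signals in the mammary gland, differed by 1.23 ± 0.40 (SE; adjusted p = 0.646) with overlapping groups.

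Sensors detect foreign or misplaced RNA and DNA, and some are themselves induced by interferon. Of 17 sensors and adaptors, Ifih1 (the RNA sensor MDA5) and Zbp1 were separated and higher, and Tlr9 and Ticam1 separated and lower. Without T172, 6 were separated and higher, when 1969 of all 16616 genes were separated in either direction. Ifih1 was at 3.31, 3.89, 2.53 and 2.19 in the high tumours and at 1.88, 1.0, 0.32 and -0.12 in the low ones, a difference of 2.21 ± 0.50 (SE; adjusted p = 0.476). Zbp1 differed by 2.47 ± 0.84 (SE; adjusted p = 0.654) with T172 at 3.44 and T55, the lowest high tumour, at 3.44 too, so that its separation rests on the next decimal. Of 8 genes of nucleic acid clearance, Adar, Samhd1 and Rnaseh2b were separated and higher, and 8 of 8 had a positive difference, with a median of 0.91 and of 0.65 without T176. Rnaseh2b, a subunit of the enzyme that removes RNA from DNA, differed by 0.95 ± 0.22 (SE; adjusted p = 0.476). Negative regulators had a median difference of 0.03, with 0 of 13 separated.

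Genes typical of interferon gamma went different ways. Of 22 measured, 7 were separated and higher and 0 lower: Gbp3, Gbp4, Igtp, Irgm1, Irgm2, Iigp1 and Cxcl10. Iigp1, an immunity-related GTPase, had the largest difference of the list, 4.68 ± 0.90 (SE; adjusted p = 0.462), and 3.93 without T176. It was at 3.19, 2.45, 4.02 and 3.04 in the high tumours and at -0.43, 0.77, -2.6 and -3.74 in the low ones. Other members, picked after their values were seen, did not go this way. Tgtp1 differed by -1.16, Gbp5 by -0.77 and Ciita, the master factor of class II genes, by -0.24. In the list 15 of 22 had a positive difference, and 14 without T176. The list median was 0.50, and 0.30 without T176.

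In class I antigen presentation, Tap1, B2m and Psmb8 were separated and higher among 17 genes. Tap1, the peptide transporter, was at 3.94, 2.54, 2.26 and 2.0 in the high tumours and at 1.22, 1.37, 0.94 and 0.74 in the low ones. Its difference was 1.62 ± 0.40 (SE; adjusted p = 0.506), and that of B2m, the light chain of class I molecules, was 1.42 ± 0.34 (SE; adjusted p = 0.476). This count rests partly on T646, which had high values for the list. Without T646, 10 of 17 were separated and higher, when 1014 of all 16616 genes were separated in either direction. None of 10 class II genes was separated, with a median of -0.07 that was 0.32 without T646, and Cd74, the invariant chain, differed by -0.50 and ranged from 0.99 to 4.18 in the low tumours. Among 28 chemokines 1 was separated, and 3 without T920, when 1082 of all 16616 genes were separated in either direction. The 1 was Cxcl10, which attracts activated T cells, at 3.63, 2.36, 2.2 and 3.46 against 0.86, 1.24, -0.16 and -0.99. Its difference was 2.67 ± 0.54 (SE; adjusted p = 0.462).

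Markers of immune cells are given as values, since most genes of any kind overlap between the groups. None of 14 T cell, 8 NK cell, 16 macrophage, 8 dendritic cell or 11 neutrophil markers was separated in either direction, with list medians of -0.18, 0.25, -0.23, -0.31 and 0.14. Of 9 B cell and plasma cell markers 1 was separated and lower, with a median of -0.18. Without T646, when 1014 of all 16616 genes were separated in either direction, 2 of these markers were separated and higher and 1 lower. Their largest difference was that of Jchain, 1.71 ± 1.03 (SE; adjusted p = 0.706). Without T176, 2 of the 14 T cell markers, Icos and Trat1, were separated and lower, beside 2.5% of all genes, and the NK median was 0.01. The macrophage median was 0.25 and the dendritic cell median -0.002 without T646, and the neutrophil median was -0.31 without T2134. Of the T cell markers 7 of 14 had a positive difference without T646, with a median of -0.02, and 2 of 14 with all 8 tumours. The largest were those of Cd5, a surface receptor of T cells, -0.72 ± 0.31 (SE; adjusted p = 0.667), and Icos, a costimulatory receptor, -0.68 ± 0.34 (SE; adjusted p = 0.677). Icos was at -0.03, -0.31, 0.25 and 0.17 in the high tumours and at 1.66, 0.67, 0.55 and -0.07 in T172, T646, T2023 and T176. The mean over the T cell list was -0.29 to 0.20 in the high tumours and -0.19 to 0.86 in the low ones, where T646 had the highest value. Of 9 markers of plasmacytoid dendritic cells, a main source of type I interferon, Bst2 was separated and higher, and Tcf4 and Tlr9 were separated and lower. Bst2 is also in the type I list, and the part of immune cells in the interferon differences was not tested.

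**Figure D3:**
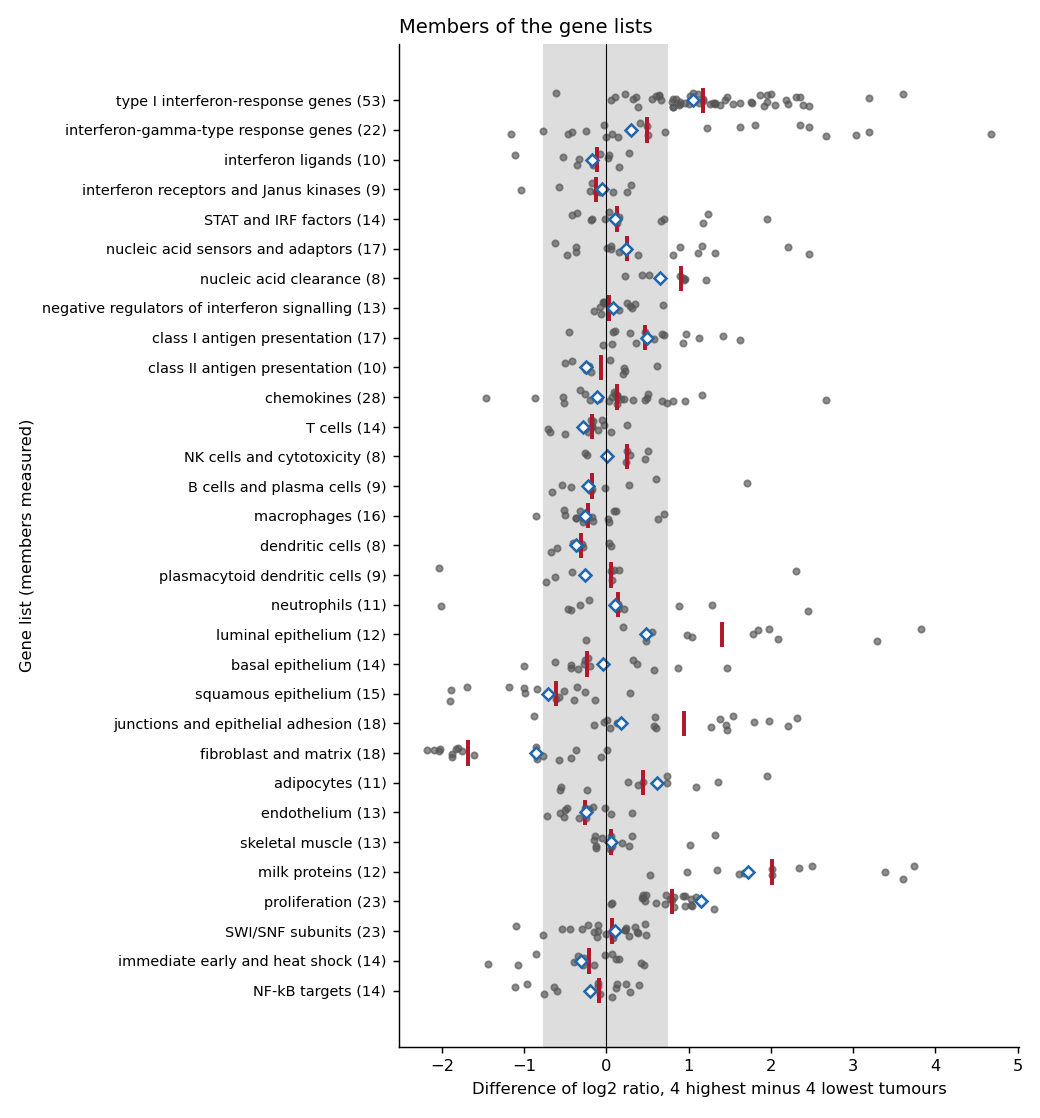
Difference of log2 ratio, mean of the 4 highest minus mean of the 4 lowest tumours (horizontal axis), for the measured members of each gene list (grey points; vertical axis, with the number of members). Red bars are list medians, blue diamonds the medians without T176, and the grey band spans the 5 to 95 percentiles of all 16616 genes, -0.77 to 0.74; the type I median is 1.18 and the ligand and receptor medians are both -0.12.

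Epithelial, matrix and cell cycle genes had large differences, none of them called, and single tumours carried much of these. T176 had low ratios of 2 luminal keratins, picked after their values were seen, with Krt8 at -3.53 and Krt18 at -4.25, where the other 7 tumours of the groups were at 0.93 to 2.97 and 1.56 to 2.96. Krt19, another luminal keratin, did not set T176 apart: it was -4.12 there, -3.66 in T284, -3.43 in T172 and -3.0 in T2023. The median difference of 12 luminal genes was 1.41 with T176 and 0.48 without it, and that of 18 junction genes was 0.94 and 0.17. Among the luminal genes 2 were separated and higher, 5 without T284 and 4 without T172. Over all genes, 1372 were separated in either direction without T284 and 1969 without T172. Of 18 fibroblast and matrix genes 0 were separated (8 lower without T172, when 1969 of all 16616 genes were separated in either direction). Their median moved from -1.68 to -0.85 without T176. Fn1, fibronectin, differed by -2.18 ± 0.71 (SE; adjusted p = 0.646) and Col1a2, a chain of type I collagen, by -2.10 ± 1.03 (SE; adjusted p = 0.670). The 15 squamous genes had a median of -0.61, which was 0.38 without T2023, the low tumour with a list mean of 2.32. The part of these tissue differences in the interferon scores was not tested.

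Elf5, a transcription factor of luminal progenitors and milk-secreting cells, was separated. It was at 4.54, 4.60, 4.83 and 4.46 in T920, T284, T55 and T2134, a range far narrower than in the low tumours, at 3.75, -0.16, 1.76 and -2.23 in T172, T646, T2023 and T176. The difference was 3.83 ± 1.08 (SE; adjusted p = 0.578), and 2.82 without T176. All 12 milk protein genes had a positive difference, with a median of 2.02 and of 1.72 without T176, but 1 of 12 was separated. Without T284 it was 5, when 1372 of all genes were separated in either direction. Without T172 it was also 5, when 1969 of all genes were. Csn2, beta-casein, was at 2.37, 0.59, 6.90 and 7.42 in the high tumours, so its difference of 3.74 ± 1.5 (SE; adjusted p = 0.662) came with a spread as wide within the group as between them.

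All 23 proliferation genes had a positive difference, with a median of 0.79, and 3 were separated, Bub1, Bub1b and Aurkb. Aurkb, a kinase of chromosome segregation, differed by 1.31 ± 0.49 (SE; adjusted p = 0.662). The list mean was -0.02 to 0.27 in the high tumours and ran from -1.75 in T646 to 0.17 in T176 in the low ones. Without T176 the median was 1.15 with 11 of 23 separated and higher, beside 4.18% of all genes. Without T646 it was 0.40 with 3 of 23 separated, when 1014 of all genes were separated in either direction. Among the genes with the smallest p that were lower in the high tumours was Ak1, adenylate kinase 1, at -2.88, -2.16, -2.12 and -2.56 against -0.01, 0.49, -1.27 and -0.40, a difference of -2.13 ± 0.37 (SE; adjusted p = 0.412). The other 4 of these, Mrm2 (-0.91), Elf4 (-1.79), Arhgap24 (-1.02) and Emb (-2.75), each had an adjusted p of 0.462. Egr1, an immediate early gene, differed by -1.44 ± 0.34 (SE; adjusted p = 0.476).

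When the score was used as a continuous measure over all 12 tumours, more genes passed. The limma slope on the score called 50 of 16616 genes (0.301%) at an adjusted p under 0.05, 44 rising and 6 falling with the score. Of the 44, 19 were in the type I, gamma-type or class I lists (13, 5 and 1) and 25 in none of them, although several of the 25, such as Oas1f and Rnf213, are known interferon targets that the lists do not hold. Calls of such genes describe the score, which is made of other genes of the same response. Without T176 the slope called 24 genes (0.144%), 23 rising and 1 falling, of which 16 were among the 50. Single tumours moved this count, to 22 without T920, 27 without T55, 29 without T2134, 31 without T160, 32 without T284, 33 without T135 and 102 without T172.

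Genes outside the 3 lists that rose with the score include Thrsp and Elf5, Thrsp being picked after its values were seen. Thrsp, a regulator of fatty acid synthesis in fat and milk-secreting cells, was at 2.29, -0.50, 1.65 and 0.88 in the interferon-high tumours and at -1.92, -2.55, -2.42 and -2.99 in the low ones. Its slope was 1.23 ± 0.17 (SE) per unit of score (limma adjusted p = 0.0084), and the adjusted p without T176 was 0.0329. The slope of Elf5 was 1.46 ± 0.24 (SE; adjusted p = 0.0238), and without T176 its adjusted p was 0.0971. The 6 genes that fell with the score were C7, a complement component, Ltbp4, Arhgap24, Cerk, Rtn4ip1 and Kalrn, none of which was called without T176. C7 had a slope of -0.38 ± 0.06 (SE; adjusted p = 0.0166).

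**Figure D4:**
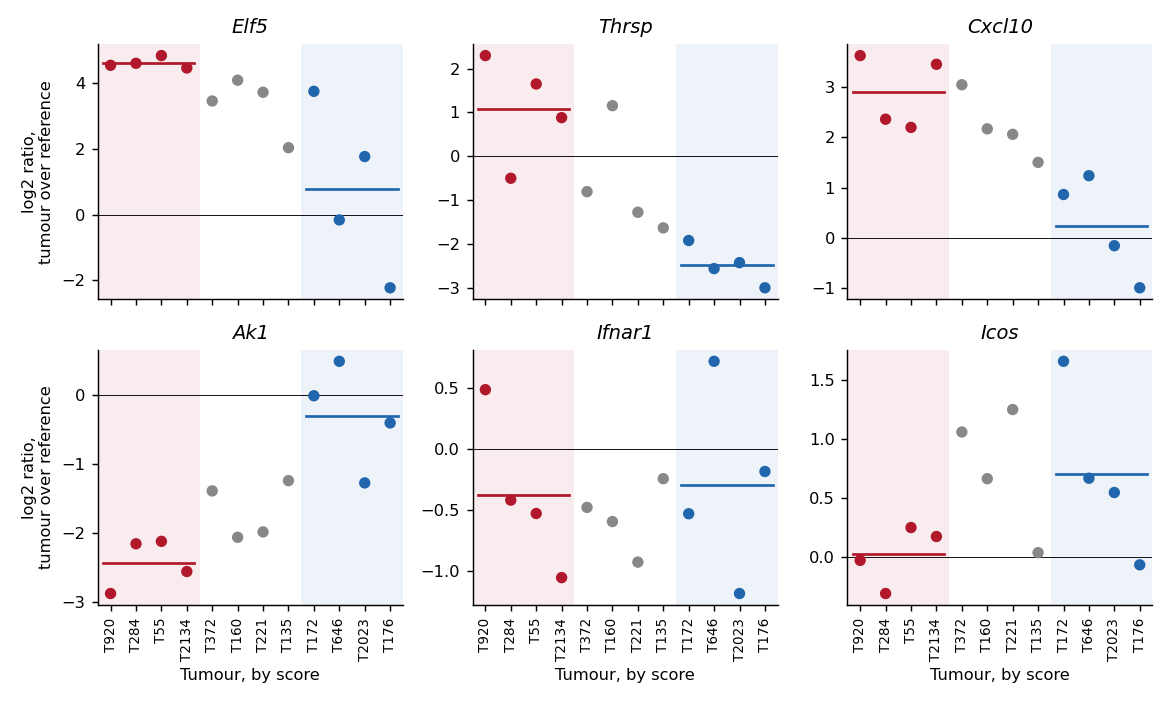
Log2 ratio of tumour over reference RNA (vertical axes, each with its own scale) of 6 genes in the 12 tumours in order of score; red, grey and blue points are high, middle and low tumours and lines are the group means. Elf5, Thrsp and Cxcl10 are higher and Ak1 lower in the 4 highest tumours with no overlap, while Ifnar1 and Icos overlap.

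Smarca4, the gene altered in these mice, overlapped between the groups. It was at -0.44, -1.08, -0.60 and -0.49 in T920, T284, T55 and T2134 and at -0.92, -0.48, -0.87 and 0.07 in T172, T646, T2023 and T176, a Smarca4 difference of -0.10 ± 0.27 (SE; adjusted p = 0.938). Smarca2, which encodes Brm, the alternative ATPase of the complex, was at -0.95, -0.71, -0.81 and -1.39 in the high tumours and at -0.28, -0.30, -0.33 and 0.12 in the low ones. The groups did not overlap, with a difference of -0.77 ± 0.21 (SE) that was not called (adjusted p = 0.565). Of 23 SWI/SNF genes it was the 1 separated with all 8 tumours, and their median difference was 0.07. Without T176, 2 were separated and higher and 2 lower, beside 4.18% and 2.5% of all genes. Without T172, 1 was higher and 3 lower, when 1969 of all 16616 genes were separated in either direction.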

How the data were processed

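Per the labels, tumour RNA (Cy5) was hybridised with a mouse reference RNA (Cy3) on every array, so no dye was swapped. The deposited table gives 1 value per probe and array, read as log2 of tumour over reference (the base inferred from their range); the sources used here give no scanner, background correction or normalization. Of 22575 probes, 18658 had 1 gene symbol, 30 several and 3887 none in the platform annotation, which can be old. Symbols were updated through RefSeq (GRCm38.p6). Probes of a gene (1254 of 16879 genes had several) and the 2 arrays of T172 and of T284 were averaged, and 16616 genes with a value in all 12 tumours, the 4 score genes left out, entered lmFit and eBayes of limma 3.58.1 (R 4.3.3), with Benjamini-Hochberg adjustment. Scripts ran in Python 3.11.15, and the fit was tested on simulated data. Ratios hold no signal level, so dim probes are not known, and the number of arrays limits precision.

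The tumours, the 31 gene lists (455 of 508 genes measured) and the rules were chosen with earlier results of these data known. Named were the score genes, the 5 genes with the smallest p in each direction, the 8 nearest to the score, and Smarca4 and Smarca2. From each list came up to 2 members with the largest difference, with interferon ligands, receptors and factors named by role. Some separated members, and genes called by the slope or in an alternative, were named for that result. Others are said to be picked after their values were seen. Groups were called separated, or not overlapping, when each value of one lay above each of the other. Alternatives included leaving out each tumour, other group sizes, single arrays, quantile normalization and a slope on the score.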

Additional observations from a re-analysis of the deposited data

Results flagged for a closer look

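In 8 cases 1 tumour of a group of 4 stood far from the other 3, by Dixon's ratio, a rule that chance alone meets in about 1 of 20 groups. As 164 groups were examined, chance alone would give about as many cases as were found. The score of T920, 3.73, stood above the other interferon-high tumours at 2.59 to 2.71, and Parp9 in T920, at 3.41, above 2.48 to 2.59. The score itself made the groups and Parp9 follows it, so that rate does not hold for them and they are given as a description. In the interferon-high group, Ifna5 was 0.14 in T2134 against -1.54 to -1.35, Nlrc3 was 1.67 in T284 against -0.25 to 0.03, and Cd83 was 0.36 in T55 against -0.86 to -0.80. Dnase1 was 5.63 in T2134 against -0.95 to -0.59 in the other high tumours, and 0.34 in T172 against -0.60 to -0.56 in the other low ones. Smarca2 was 0.12 in T176 against -0.33 to -0.28 in the other low tumours.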

How the results depend on the processing

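The count of 0 called genes between interferon-high and interferon-low held in 18 alternatives (2 others only tightened the threshold), with smallest adjusted p of 0.0544 to 0.548 and 878 to 1982 genes at an unadjusted p under 0.05; the slope on the score called 50. Leaving out 1 more tumour from the comparison without T176 gave 0 to 1 calls, the 1 being Krt76, lower in the high group, without T2023 (adjusted p = 0.013). Leaving out 1 tumour gave 22 to 102 slope calls (71 after quantile normalization), 1014 to 1969 genes with separated groups against 713, where fewer tumours make separation easier, and 28 to 37 separated type I genes (26 after quantile normalization). Group membership was the same for 7 of 8 tumours with a score from Ifit1 alone or Usp18 alone (T135 in place of T172), for 7 with Isg15 alone (T372 in place of T2134), and for 8 with Mx2 alone or the other type I genes. Of 1384 values of 77 named genes, 9 in 7 genes changed sign: Dnase1 was -0.15 with 3 against 3 tumours, and leaving out 1 tumour gave ranges of -0.38 (without T2134) to 1.81 for Dnase1, -0.10 (T284) to 0.535 for Nlrc3, -0.12 (T176) to 1.39 for Ctss, -0.98 to 0.084 (T646) for Cd74, -1.63 to 0.14 (T2023) for Id4, -0.48 (T55) to 2.17 for Myh4, and -0.23 to 0.10 (T176; 0.04 without T284) for Smarca4. The cause was not tested. Background correction, a filter on dim probes and a slide block were not run. No paired analysis was possible because the replicate numbers mark the 2 arrays of a tumour, the second labelled biorep, and pair no tumours across groups.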
